A study of Mus musculus with 6 samples.

Results

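Enzymes that add or remove methyl groups on histones, or remove acetyl groups from them, were followed as 1 group of 67 genes among 19938 genes measured on arrays of mouse pre-B cells transformed by BCR-ABL1. The members are all measured genes whose symbol begins with Kdm (lysine demethylases, without Kdm3a), Kmt or Setd (SET-domain methyltransferases), Ehmt, Ezh, Prmt (arginine methyltransferases), Hdac (deacetylases) or Sirt (sirtuins) and then a number, together with Eed, Suz12, Dot1l and Nsd1. Every one of the 67 was measured by a probe set annotated to that gene alone, and a gene with several such probe sets is represented by its brightest, judged by the mean of the 6 arrays. Some members, such as the mitochondrial sirtuins and Setd6, act mainly on proteins other than histones, so the name of the group describes most but not all of its genes.

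The tested cells carried CRE-ERT2, a Cre recombinase fused to a modified oestrogen receptor domain that holds it inactive until a tamoxifen metabolite binds, and the control cells carried ERT2, the same domain without Cre. There were 3 arrays of each. All 6 came from pre-B cells of strain 129P2/OlaHsd that were transformed by the fusion kinase BCR-ABL1 and labelled Ptpn6 +/fl, meaning 1 wild-type and 1 floxed allele of the gene for the phosphatase SHP-1. All were selected for puromycin resistance and kept for 2 days in 0.5 micromolar 4OH-Tamoxifen. The study asks about the role of Ptpn6 in these leukaemia cells. Cre without a floxed allele was not analysed here, so an effect of Cre itself and an effect of recombining Ptpn6 cannot be told apart. Nothing in the labels says that the replicates were separate cultures, clones or animals, so each p-value compares the difference with the scatter among these 6 samples, and that scatter may be purely technical.

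Histone tails carry marks that help to set which genes are read. Methylation of lysine 4 of histone H3 (H3K4) is found at active promoters and enhancers, methylation of H3K36 and H3K79 in transcribed gene bodies, and methylation of H3K9 and H3K27 in silenced chromatin. Acetyl groups loosen chromatin, and deacetylases, which work inside corepressor complexes, take them off. In B cell precursors EZH2 is known to support rearrangement of the antibody genes, and deacetylases and methyltransferases of this group are mutated or used as drug targets in lymphoid cancers.

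Few of these genes differed between the groups. With limma and Benjamini-Hochberg adjustment over all genes, 3 of the 67 members fell in the arrays labelled CRE-ERT2, 0 rose and 64 did not pass. Over all 19938 genes, 2.28% fell, 2.30% rose and 4.58% passed in either direction, so the members' share of 4.48% was near the background. The 3 that fell were Hdac9 and Hdac5, both class IIa deacetylases, and Prmt7, an arginine methyltransferase. The median log2 change of the 67 genes was -0.04, with quartiles of -0.13 and 0.02. Across all genes tested the median was -0.03, with quartiles of -0.11 and 0.04. At an unadjusted p under 0.05 there were 10 members (14.9%), 8 lower and 2 higher, where all genes gave 16.4% (11.1% lower and 5.29% higher). The groups did not overlap for 21 members (31.3%), 17 lower and 4 higher, where all genes gave 22.5% (15.5% lower and 6.92% higher). The median half-width of a member's 95% confidence interval was 0.17 on the log2 scale, with a range of 0.15 to 0.22. Changes smaller than this could not be told from 0 gene by gene, even before adjustment. After adjustment some larger changes also failed, such as that of Prmt3 (-0.26, limma adjusted p = 0.0651).

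**Figure D1:**
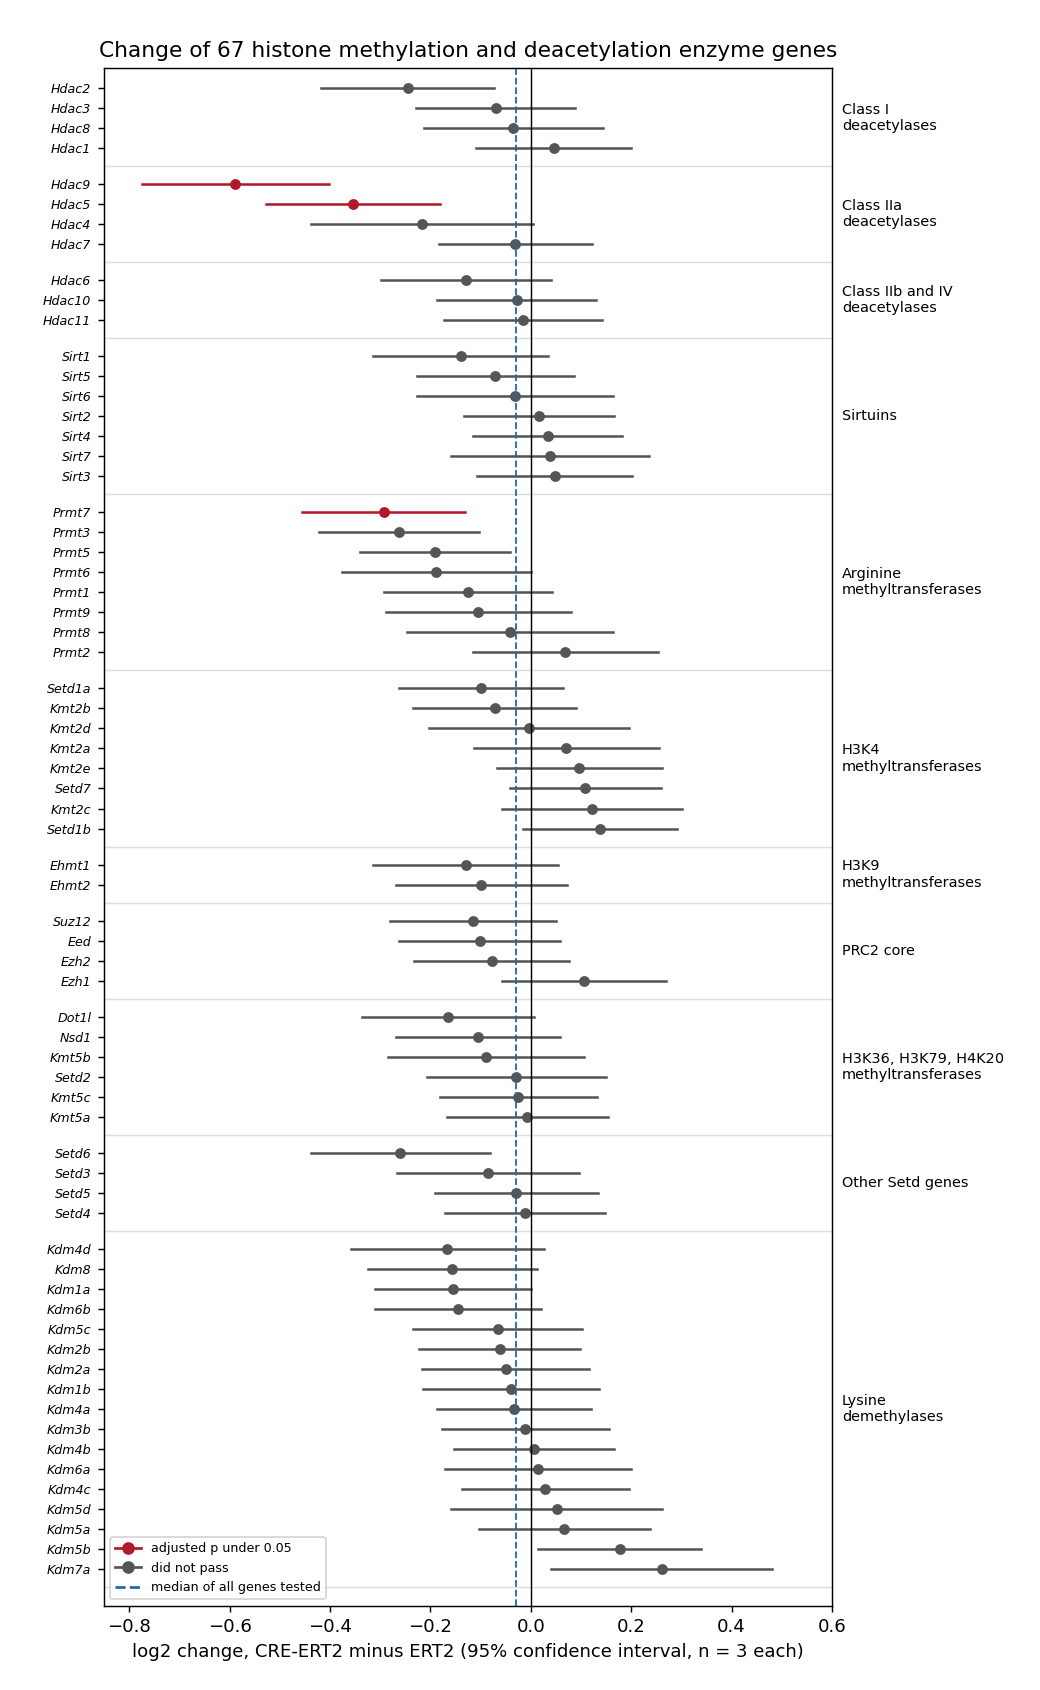
Log2 change, CRE-ERT2 minus ERT2, of each of the 67 members (points) with its 95% confidence interval (lines), grouped by role, with the median of all genes as a dashed line at -0.03. The 3 red points, Hdac9 (-0.59), Hdac5 (-0.35) and Prmt7 (-0.29), passed the test, and 39 members lay within 0.1 of 0.

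Over all genes 459 rose and 455 fell, a share of 50.2% higher. The share depended on the processing: it was 60.9% of 892 when the arrays were quantile normalized again and 47.9% of 933 when they were centred, but 42.9% of 1260 without the dimmest genes and 38.0% of 1544 with a trended and robust variance. Median log2 expression over probe sets was 7.90 to 7.96 in the CRE-ERT2 arrays and 7.93 to 7.98 in the ERT2 arrays. Ptpn6 itself measured 11.36, 11.25 and 11.20 in the CRE-ERT2 arrays and 11.25, 11.39 and 11.39 in the ERT2 arrays (log2 change -0.07, limma adjusted p = 0.759). Whether its probe set lies in the floxed part is unknown, so this level does not check the labels. Of 13 pre-B cell markers listed, 12 were measured, with group means of 8.15 to 14.46. Among them Rag2, a recombinase of antigen receptor genes, fell by 0.53 (adjusted p = 0.00426) and Dntt, the terminal transferase of early lymphocytes, rose by 0.48 (0.00369), and neither passed in the test over all probe sets (Rag2 0.0912, Dntt 0.0640). Of the 12, 10 had a positive change (median 0.095), where 61.1% of all genes had a negative one, so Rag2 had the opposite sign to most of its list. The other negative change was that of Rag1 (-0.11, limma adjusted p = 0.614). The groups did not overlap for 7 of the 12 (58.3%), 6 of them higher, where all genes gave 22.5% (6.92% higher). Of 32 markers of T and NK, myeloid, erythroid and stromal cells, 0 passed with limma and 1 (Lyz2, -0.22, named for its value) had an unadjusted p under 0.05.

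The class IIa deacetylases are Hdac4, Hdac5, Hdac7 and Hdac9. They have little catalytic activity of their own, shuttle between nucleus and cytoplasm under the control of kinases, and repress genes by binding MEF2 transcription factors. Hdac9 showed the largest change of all members. Its log2 expression was 9.10, 8.89 and 8.84 in the CRE-ERT2 arrays, against 9.59, 9.56 and 9.43 in the ERT2 arrays. All 3 CRE-ERT2 arrays lay below all 3 ERT2 arrays. The means were 8.94 ± 0.14 and 9.53 ± 0.08 (SD, n = 3 each), a change of -0.59 with a standard error of 0.09, or a ratio of 0.665 with a 95% interval of 0.585 to 0.757 (limma adjusted p = 0.00128). Hdac9 passed in each of the 14 alternative analyses, with changes from -0.67 to -0.54 and adjusted p from 0.000164 to 0.0476.

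Hdac5 measured 9.27, 9.11 and 9.05 in the CRE-ERT2 arrays, against 9.57, 9.46 and 9.47 in the ERT2 arrays. Again the groups did not overlap. The change was -0.35 with a standard error of 0.08, which was 1.28-fold lower, with a 95% interval of the ratio from 0.694 to 0.882 (limma adjusted p = 0.0244). Hdac5 passed in 3 of the 6 fits with an array left out. Adjusted p was 0.0907 when CRE-ERT2 replicate 2 was left out, 0.147 when CRE-ERT2 replicate 3 was, and 0.104 when ERT2 replicate 1 was. It was also lost when all probe sets were tested (0.148).

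Hdac4 did not pass. Its values were 10.82, 10.65 and 10.90 in the CRE-ERT2 arrays, against 11.23, 10.87 and 10.93 in the ERT2 arrays, and the groups overlapped (-0.22, adjusted p = 0.316). ERT2 replicate 1 stood above the other ERT2 arrays in this gene, and a second Hdac4 probe set gave 0.01. Hdac7, the class IIa member with a known role in B cell identity, had a 95% confidence interval of -0.18 to 0.12 around a change of -0.03, which was 0.01 after a further quantile normalization. Whether the 4 class IIa genes differ from each other in their change was not tested.

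The windows around the start sites of the 3 genes that fell are printed from RefSeq (GRCm38.p6), from 250 bases before to 50 bases after each start, because the genes differ in the CpG content of this region. Capitals mark CpG pairs, the sites at which DNA can be methylated.
Hdac9, upstream start (chr12:34917046-34917345, minus strand): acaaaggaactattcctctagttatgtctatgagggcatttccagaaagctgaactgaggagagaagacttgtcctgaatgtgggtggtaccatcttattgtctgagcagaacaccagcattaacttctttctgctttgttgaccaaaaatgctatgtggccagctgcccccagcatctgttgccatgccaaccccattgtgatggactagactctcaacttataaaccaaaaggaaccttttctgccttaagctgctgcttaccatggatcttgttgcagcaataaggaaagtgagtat
Hdac9, downstream start (chr12:34528840-34529139, minus strand): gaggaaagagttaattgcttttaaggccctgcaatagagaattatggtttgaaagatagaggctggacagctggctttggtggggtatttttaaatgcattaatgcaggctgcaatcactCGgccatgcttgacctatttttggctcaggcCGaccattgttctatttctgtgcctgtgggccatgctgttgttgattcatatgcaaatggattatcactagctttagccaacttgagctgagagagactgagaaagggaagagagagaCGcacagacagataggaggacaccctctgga
Hdac5 (chr11:102230123-102230422, minus strand): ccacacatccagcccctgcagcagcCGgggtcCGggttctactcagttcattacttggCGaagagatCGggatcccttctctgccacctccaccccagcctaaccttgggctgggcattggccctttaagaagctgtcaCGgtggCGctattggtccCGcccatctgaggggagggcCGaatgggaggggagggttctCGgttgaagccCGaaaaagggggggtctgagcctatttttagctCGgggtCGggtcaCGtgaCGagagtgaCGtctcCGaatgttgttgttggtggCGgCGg
Prmt7 (chr8:106210804-106211103, plus strand): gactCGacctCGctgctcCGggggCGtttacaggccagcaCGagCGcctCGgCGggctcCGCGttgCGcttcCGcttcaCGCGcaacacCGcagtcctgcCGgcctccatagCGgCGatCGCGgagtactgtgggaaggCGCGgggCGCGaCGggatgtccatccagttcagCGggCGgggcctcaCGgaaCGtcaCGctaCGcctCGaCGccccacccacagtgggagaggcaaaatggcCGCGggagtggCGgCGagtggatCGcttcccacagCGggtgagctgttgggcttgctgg

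Windows were found for 55 of the 67 members, 71 windows in all. CpG pairs numbered 0 and 3 in the Hdac9 windows, 18 in the Hdac5 window and 39 in the Prmt7 window, while the median was 23 over the members' windows and 7 over all 32851 windows of the table. The letters CACGTG, the E-box bound by MYC and its relatives, read the same on both strands. They were present for 7 members (Ehmt2, Hdac5, Kdm4c, Kdm6a, Prmt1, Prmt3 and Sirt1), in 8 of the members' 71 windows, and in 7.15% of all windows. These letters hold a CpG pair, and the members' windows were richer in CpG pairs, so the 7.15% is not a matched background. In the Hdac5 window they begin 3 bases after the start. A match is a description of these letters and not a binding site.

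**Figure D2:**
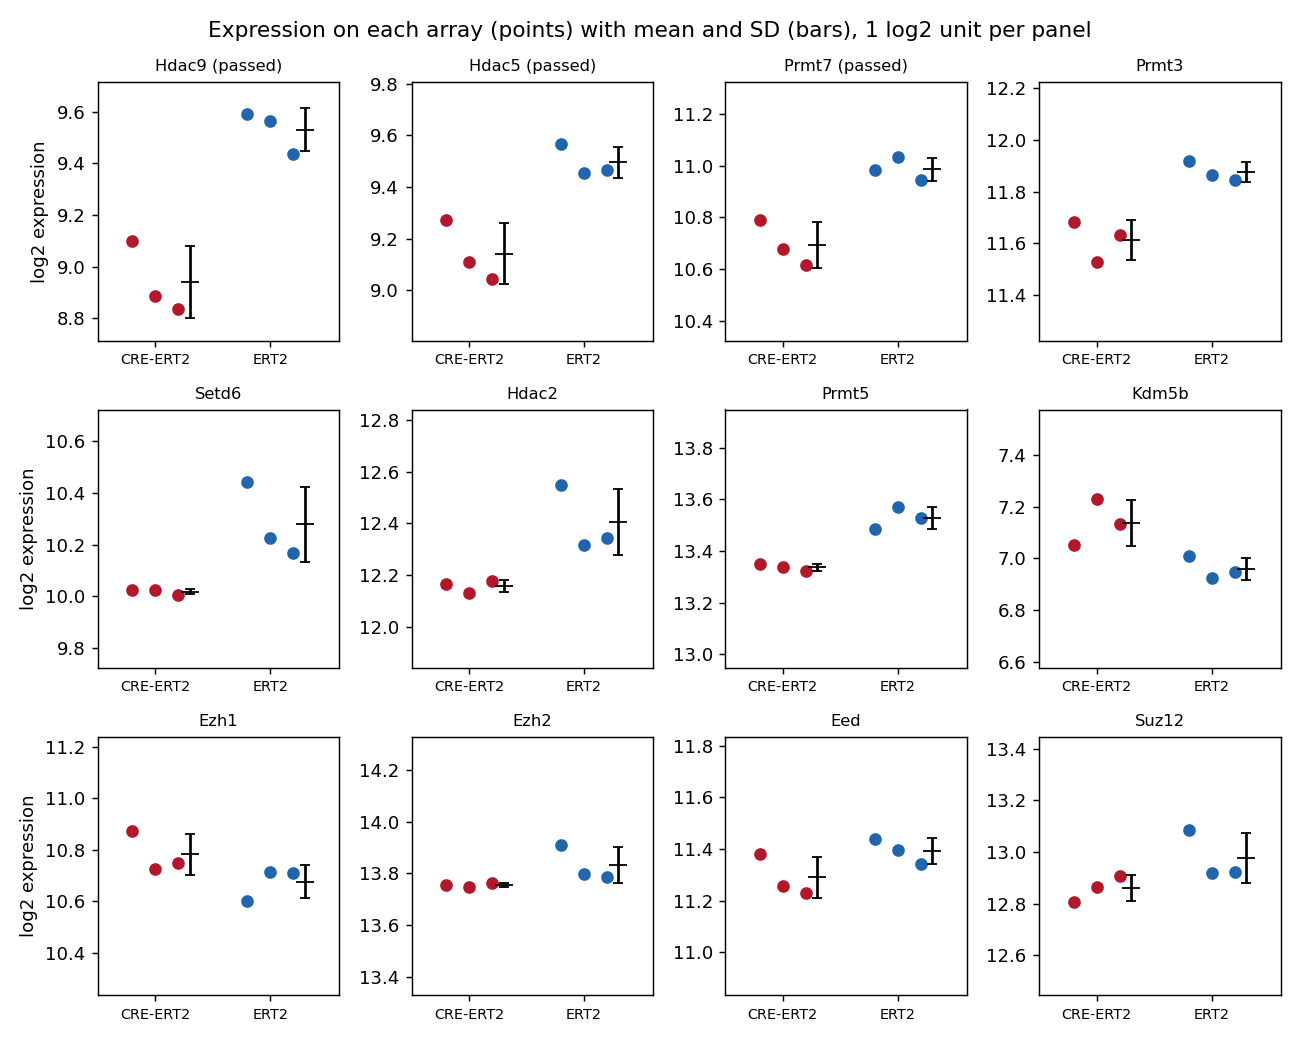
Log2 expression on each array (points) with mean and SD (bars, n = 3) for the 3 members that passed, 5 further members with an unadjusted p under 0.05 and groups that did not overlap, and the PRC2 core genes, with CRE-ERT2 left of ERT2 and 1 log2 unit of height in every panel. Hdac9 has the widest gap, 8.94 against 9.53, and the PRC2 genes have the narrowest.

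The other deacetylases did not pass. Class I enzymes are mainly nuclear, and Hdac1, Hdac2 and Hdac3 work as catalytic subunits of corepressor complexes. Of the 4 class I genes 0 passed with limma and 1, Hdac2, had an unadjusted p under 0.05. Hdac2 measured 12.17, 12.13 and 12.18 in the CRE-ERT2 arrays, against 12.55, 12.32 and 12.34 in the ERT2 arrays. The groups did not overlap, the CRE-ERT2 arrays lay close together, and ERT2 replicate 1 was the highest (change -0.25, limma adjusted p = 0.114). Hdac2 passed with a trended and robust variance (0.0184). Hdac1, its close relative in the same complexes, was at 0.05 with a 95% interval from -0.11 to 0.20, and a second probe set gave 0.045. A processed copy, Hdac1-ps, is listed in RefSeq, and which transcripts the second probe set reads was not tested. Hdac3, the deacetylase of the NCoR and SMRT complexes, and Hdac8 lay within the range of -0.07 to 0.05 that held the 3 other class I genes.

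Hdac6, the mainly cytoplasmic class IIb enzyme that deacetylates tubulin, measured 10.19, 10.24 and 10.02 in the CRE-ERT2 arrays and 10.29, 10.30 and 10.24 in the ERT2 arrays (-0.13, limma adjusted p = 0.470). The groups did not overlap, but the nearest arrays were only 10.2355 (CRE-ERT2) and 10.244 (ERT2). Hdac10, of the same class, and Hdac11, the single class IV enzyme, lay between -0.03 and -0.02. Of these 3 genes 0 passed, and 0 had an unadjusted p under 0.05.

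Sirtuins are deacetylases that need NAD, and link these reactions to metabolism. Of 7 measured, 0 passed with limma and 0 had an unadjusted p under 0.05, with a median change of 0.02. Sirt1, the nuclear enzyme best known for deacetylating p53 and histones, measured 11.22, 11.06 and 11.28 in the CRE-ERT2 arrays and 11.25, 11.40 and 11.33 in the ERT2 arrays. The groups overlapped (-0.14, adjusted p = 0.446). Sirt5, a mitochondrial enzyme that removes succinyl and malonyl groups, was at -0.07 without overlap (0.739). Sirt2, Sirt3, Sirt4, Sirt6 and Sirt7 lay between -0.03 and 0.05, and their 95% intervals reached from -0.23 to 0.24.

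Of 8 arginine methyltransferases, 1 (Prmt7) fell and 7 did not pass. The change was negative in 7 of 8, where 61.1% of all genes, not matched for brightness, had a negative change. The median of the 8 was -0.16, beside -0.03 for all genes. At an unadjusted p under 0.05 there were 4, all lower (Prmt7, Prmt3, Prmt5 and Prmt6), where 11.1% of all genes were lower at that threshold. Prmt7 makes monomethyl arginine and measured 10.79, 10.68 and 10.61 in the CRE-ERT2 arrays, against 10.98, 11.03 and 10.94 in the ERT2 arrays, with no overlap. Its change was -0.29 with a standard error of 0.07, or 1.22-fold lower (limma adjusted p = 0.0444). This call was close to the threshold and passed in 5 of 14 alternatives. Adjusted p for Prmt7 was 0.153 when CRE-ERT2 replicate 2 was left out and 0.215 when CRE-ERT2 replicate 3 was. Leaving out ERT2 replicate 1, 2 or 3 gave 0.114, 0.111 and 0.0553 in that order. The call was lost too when arrays were centred (0.0534) or quantile normalized again (0.0594), when replicate number entered as a block (0.109) and when all probe sets were tested (0.173).

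Prmt3, a cytoplasmic enzyme that methylates a protein of the small ribosomal subunit, measured 11.68, 11.53 and 11.63 in the CRE-ERT2 arrays, against 11.92, 11.86 and 11.84 in the ERT2 arrays. There was no overlap (-0.26, limma adjusted p = 0.0651), and Prmt3 passed with the dimmest genes left out (0.0328) and with a trended and robust variance (0.0110). Prmt5, the main source of symmetric dimethyl arginine on histones and splicing proteins, measured 13.35, 13.34 and 13.32 in the CRE-ERT2 arrays, against 13.49, 13.57 and 13.53 in the ERT2 arrays. Here too the groups were apart, with little spread in either (-0.19, adjusted p = 0.166, and 0.0102 with a trended and robust variance). Prmt6, which methylates histone H3 at arginine 2 in a way that opposes H3K4 methylation, was at -0.19 with overlapping groups (0.305). Prmt1, the main asymmetric dimethyltransferase, was at -0.12 (0.487) and Prmt9 at -0.10 (0.643). Prmt8, known from brain and among the dimmest genes here, and Prmt2 lay between -0.04 and 0.07.

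Of 8 genes grouped by symbol as H3K4 methyltransferases (Kmt2 genes, Setd1a, Setd1b and Setd7), 5 had a positive change and the median was 0.08. With limma 0 passed, and 0 had an unadjusted p under 0.05. The grouping does not establish that each of the 8, Kmt2e included, has this activity. Setd1b, catalytic subunit of a complex that trimethylates H3K4 at promoters, measured 11.44, 11.48 and 11.42 in the CRE-ERT2 arrays, against 11.26, 11.28 and 11.38 in the ERT2 arrays. The groups did not overlap (0.14, adjusted p = 0.372), but a second Setd1b probe set gave -0.04. Setd1a, which encodes the sister enzyme, was at -0.10 (0.608), also without overlap. Setd7, a monomethyltransferase of H3K4 and of many other proteins, measured 11.27, 11.28 and 11.27 in the CRE-ERT2 arrays, against 11.13, 11.21 and 11.15 in the ERT2 arrays (0.11, 0.501). Kmt2c, an enhancer methyltransferase, was at 0.12 with overlap (0.544). Kmt2a, the MLL1 gene broken by translocations in acute leukaemia, Kmt2b, Kmt2d and Kmt2e lay between -0.07 and 0.10. A second Kmt2d probe set gave -0.16, against -0.00 on the one kept, whose sign turned in 5 of the 14 alternatives.

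Polycomb repressive complex 2 (PRC2) methylates H3K27. Its core consists of the catalytic subunit Ezh2 or Ezh1 with Eed and Suz12. Of these 4 genes 0 passed with limma, and 0 had an unadjusted p under 0.05. Ezh2, the catalytic subunit of dividing cells, measured 13.75, 13.75 and 13.76 in the CRE-ERT2 arrays, against 13.91, 13.80 and 13.79 in the ERT2 arrays (-0.08, adjusted p = 0.692). Ezh1, which is more prominent in resting cells, went the other way, with 10.87, 10.73 and 10.75 in the CRE-ERT2 arrays and 10.60, 10.71 and 10.71 in the ERT2 arrays (0.11, 0.569). Neither gene's groups overlapped, but the nearest arrays of Ezh1 were only 10.73 and 10.71.

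Suz12, which holds the complex together, measured 12.81, 12.87 and 12.91 in the CRE-ERT2 arrays, against 13.09, 12.92 and 12.92 in the ERT2 arrays (-0.12, limma adjusted p = 0.523). ERT2 replicate 1 was the highest and the remaining arrays lay close together. Eed, the subunit that reads H3K27 methylation, measured 11.38, 11.26 and 11.23 in the CRE-ERT2 arrays and 11.44, 11.40 and 11.34 in the ERT2 arrays, with overlap (-0.10, 0.588). A second Eed probe set gave 0.02.

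Ehmt1 and Ehmt2, which encode GLP and G9a, a pair of enzymes that methylate H3K9 together, were at -0.13 (limma adjusted p = 0.521) and -0.10 (0.632). Of these 2 genes 0 passed and 0 had an unadjusted p under 0.05. Dot1l, the main H3K79 methyltransferase, measured 11.59, 11.61 and 11.50 in the CRE-ERT2 arrays, against 11.86, 11.64 and 11.70 in the ERT2 arrays, without overlap (-0.16, 0.331). Nsd1, an H3K36 dimethyltransferase, was at -0.11 (0.574). Setd2, the main enzyme for trimethylation of H3K36, and the H4K20 methyltransferases Kmt5a, Kmt5b and Kmt5c lay between -0.09 and -0.01. All 6 of these H3K36, H3K79 and H4K20 genes had a negative change, as did 61.1% of all genes, which were not matched for brightness. The median of the 6 was -0.06, but 0 passed and 0 had an unadjusted p under 0.05.

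Setd6, which is known to methylate the NF-kB subunit RelA, measured 10.02, 10.03 and 10.01 in the CRE-ERT2 arrays, against 10.44, 10.23 and 10.17 in the ERT2 arrays. No array of one group reached the other, and ERT2 replicate 1 stood highest (-0.26, limma adjusted p = 0.106). It passed in 0 of the 14 alternatives, with adjusted p from 0.0556 to 0.314. Setd3, an actin histidine methyltransferase, Setd4 and Setd5 lay between -0.08 and -0.01.

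Lysine demethylases, the largest family with 17 members, held no gene past the threshold: 0 passed with limma, 2 had an unadjusted p under 0.05, and both of those were higher. The median change was -0.03, with 10 negative and 7 positive values. Kdm7a, which removes methyl groups from H3K9 and H3K27, had the largest positive change of all members. It measured 8.52, 8.68 and 8.76 in the CRE-ERT2 arrays, against 8.60, 8.37 and 8.21 in the ERT2 arrays. The groups overlapped, since ERT2 replicate 1 lay above CRE-ERT2 replicate 1 (0.26, adjusted p = 0.203). A second Kdm7a probe set gave 0.19. Kdm5b, an H3K4 demethylase, measured 7.05, 7.23 and 7.13 in the CRE-ERT2 arrays, against 7.01, 6.92 and 6.95 in the ERT2 arrays, without overlap (0.18, 0.253). Kdm5b was among the dimmest genes, in the lowest tercile of mean expression.

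Negative changes among the demethylases were smaller. Kdm1a, the LSD1 gene, whose flavin-dependent enzyme removes H3K4 methylation in the CoREST complex, measured 11.73, 11.65 and 11.73 in the CRE-ERT2 arrays, against 11.92, 11.85 and 11.81 in the ERT2 arrays (-0.15, limma adjusted p = 0.308). Kdm6b, an H3K27 demethylase induced by inflammatory signals, was at -0.14 (0.386), and Kdm8 at -0.16 (0.353). The groups did not overlap for any of these 3. Of the 17 demethylases the groups did not overlap for 4 (23.5%), 3 of them lower, near the 22.5% of all genes. Kdm4d, an H3K9 demethylase best known from testis and dim here, was at -0.17 with overlap (0.395). The remaining 11 (Kdm1b, Kdm2a, Kdm2b, Kdm3b, Kdm4a, Kdm4b, Kdm4c, Kdm5a, Kdm5c, Kdm5d and Kdm6a) lay between -0.07 and 0.07.

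**Figure D3:**
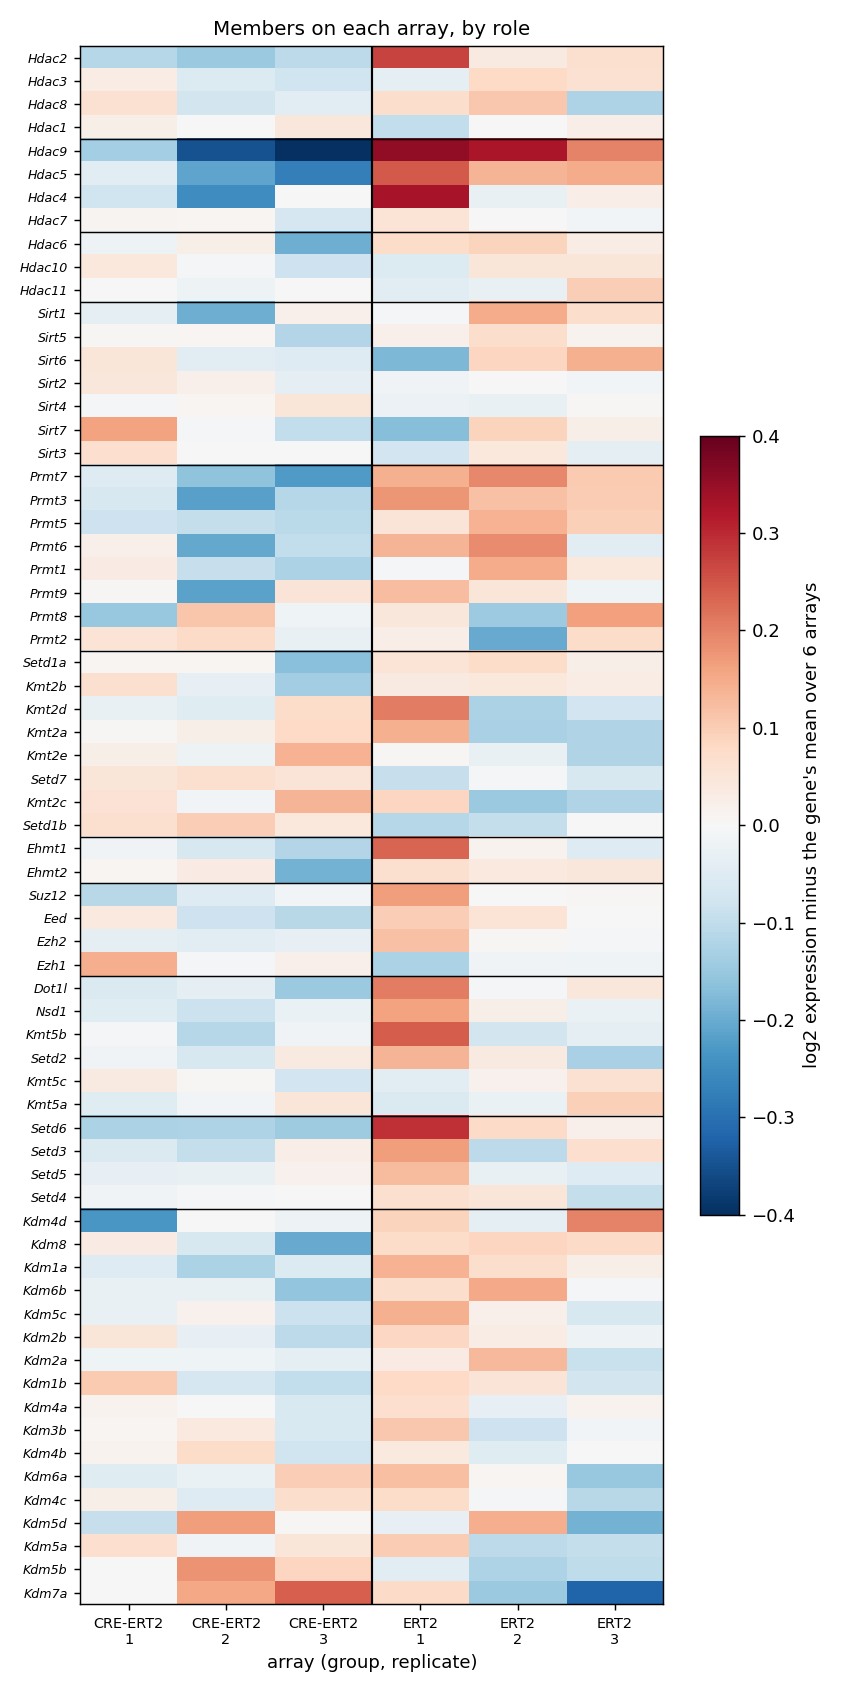
Log2 expression of each member on each array minus that gene's mean over the 6 arrays (colour, from -0.4 to 0.4), with CRE-ERT2 arrays left of ERT2 arrays and roles separated by lines in the order of the plot of changes. ERT2 replicate 1 is the highest array for 30 of 67 members, and Hdac9 and Hdac5 are blue in all CRE-ERT2 arrays and red in all ERT2 arrays.

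Single arrays stood at the edge for many members. ERT2 replicate 1 was the highest of the 6 arrays for 30 members (44.8%), against 31.3% of all genes. CRE-ERT2 replicate 3 was the lowest for 26 members (38.8%), against 19.5% of all genes. The members' median deviation from their own means was 0.00, -0.03 and -0.04 in the CRE-ERT2 arrays, against 0.07, 0.02 and 0.00 in the ERT2 arrays. Without ERT2 replicate 1 the median change of the members was still -0.04, and 1 member passed (Hdac9). Without CRE-ERT2 replicate 3 the median was -0.03, and the same single gene passed. The part of these arrays in the members' values was otherwise not tested.

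**Figure D4:**
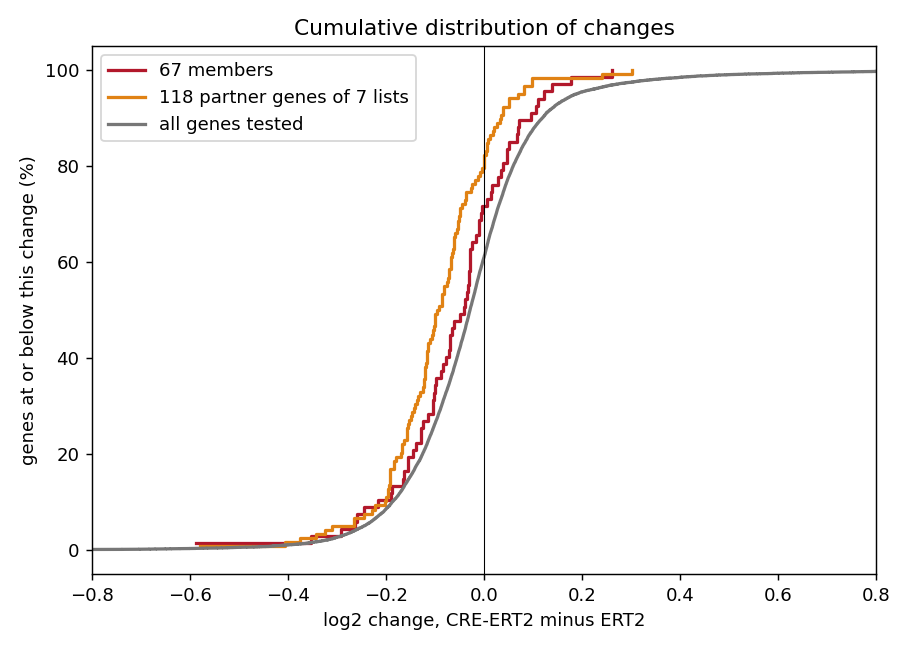
Share of genes (vertical axis, percent) at or below each log2 change, CRE-ERT2 minus ERT2 (horizontal axis), for the 67 members, 118 partner genes and all genes tested. The members' curve (median -0.04) runs close to that of all genes (-0.03), and the partner genes (-0.09) lie to the left.

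Partners of these enzymes were described from 7 lists of genes that are not members, 118 genes in all. Of these, 6 fell, 0 rose and 112 did not pass (5.08% passed, against 4.58% of all genes). Their median change was -0.09, and 96 of 118 (81.4%) had a negative change, where 71.6% of the members and 61.1% of all genes did. Neither set was compared with genes of like brightness. Median log2 expression per array was 10.76 to 10.95 for the members and 8.16 to 8.25 for all genes. With the dimmest genes left out, the median change of all genes was -0.04, and 540 rose and 720 fell. The largest change among the partners was in Phf19, an accessory subunit that brings PRC2 to chromatin. Phf19 measured 8.85, 8.58 and 8.52 in the CRE-ERT2 arrays, against 9.24, 9.35 and 9.10 in the ERT2 arrays, without overlap (-0.58, 1.49-fold lower, limma adjusted p = 0.00352). It passed in 13 of 14 alternatives and was lost when all probe sets were tested (0.0913). The other 7 PRC2 accessory genes did not pass.

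Sap30 (-0.41, limma adjusted p = 0.0377) and Ing2 (-0.34, 0.0489), both subunits of the SIN3 deacetylase complex, fell among 27 genes of HDAC corepressor complexes. Suv39h2, an enzyme that trimethylates H3K9 in heterochromatin (-0.38, 0.0404), and Smyd5, a SET and MYND domain methyltransferase (-0.31, 0.0346), fell in another list. That list held 17 genes entered as other methyltransferases, and the activity of each, such as Fbxo11, was not checked. Kdm3a, an H3K9 demethylase induced by low oxygen, fell by 0.32 (0.0347) among 12 JmjC genes. The groups did not overlap for any of these 5 genes, but each passed in only 1 or 2 of the 6 fits with an array left out. The sign turned in 0 of the alternatives. Such fits have fewer arrays, so a lost call does not by itself point to the array left out. Without CRE-ERT2 replicate 2, adjusted p was 0.150 for Sap30, 0.220 for Ing2, 0.169 for Suv39h2, 0.123 for Smyd5 and 0.152 for Kdm3a. Leaving out CRE-ERT2 replicate 3 gave 0.147, 0.192, 0.0526, 0.179 and 0.128 in the same order of genes. Leaving out ERT2 replicate 1 gave 0.163, 0.137, 0.167, 0.0692 and 0.130. Sap30 (0.0919), Ing2 (0.0926), Smyd5 (0.101) and Kdm3a (0.0712) were also lost without ERT2 replicate 2. Leaving out CRE-ERT2 replicate 1 ended the calls of Suv39h2 (0.112) and Kdm3a (0.0697), and leaving out ERT2 replicate 3 that of Ing2 (0.0663). With the replicate number as a block all 5 calls were lost (Sap30 0.0669, Ing2 0.0956, Suv39h2 0.0639, Smyd5 0.0967, Kdm3a 0.0826), as they were when all probe sets were tested (0.154 to 0.237). A further quantile normalization ended those of Sap30 (0.0521), Ing2 (0.0522), Suv39h2 (0.0629) and Smyd5 (0.0610). Array weights ended that of Suv39h2 (0.0570).

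With limma 0 genes of the remaining 3 lists passed. Among 12 subunits of COMPASS and MLL complexes, which carry the H3K4 methyltransferases, the median was -0.14. All 12 changes were negative, where 61.1% of all genes, not matched for brightness, had a negative change. The smallest p belonged to Ash2l (-0.20, limma adjusted p = 0.215) and Psip1 (-0.18, 0.285). Among 23 histone acetyltransferase genes, which work against the deacetylases, the median was -0.06. Kat2a (-0.25, 0.137) and Kat7 (-0.18, 0.257) had the smallest p, and Kat2a passed with a trended and robust variance (0.0269). Among 20 genes for readers of acetyl and methyl marks the median was -0.09, with the smallest p for the Polycomb reader Cbx7 (-0.23, 0.115) and for Phf20 (-0.22, 0.152). The counts at an unadjusted p under 0.05 were 2, 5 and 4 among the 12, 23 and 20 genes of these lists, where all genes gave 16.4%.

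**Figure D5:**
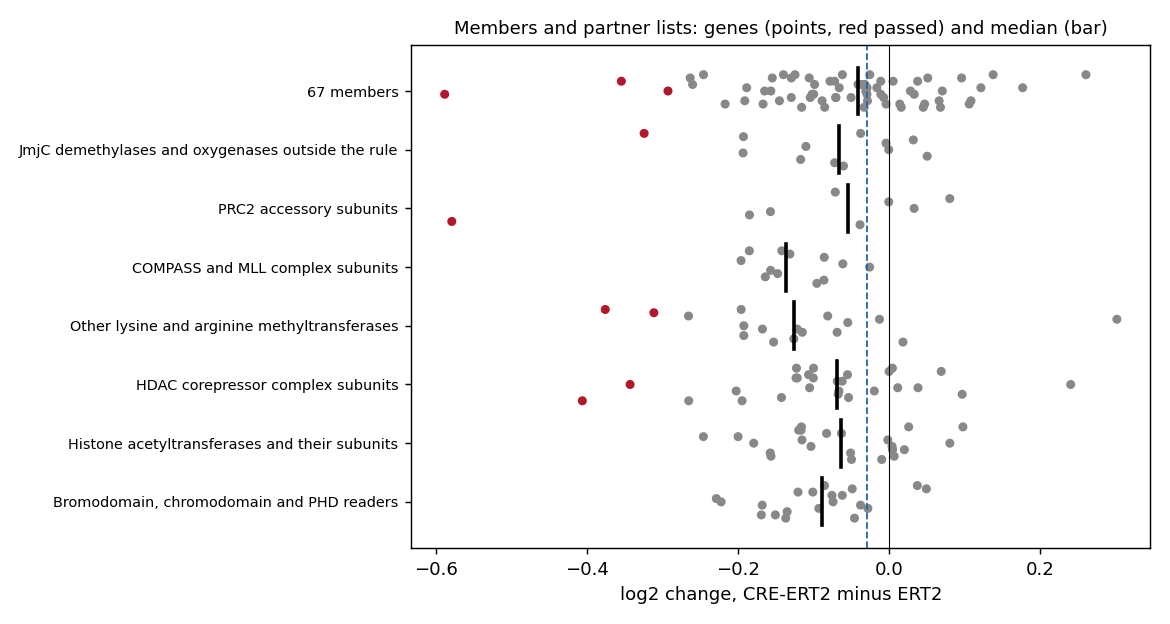
Log2 change, CRE-ERT2 minus ERT2, of the 67 members and of each gene in the 7 partner lists (points, red where the gene passed), with the median of each list (black bar) and of all genes (dashed line). All red points lie to the left of -0.29, and Phf19 (-0.58) and Hdac9 (-0.59) lie farthest out.

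Of the 8 members with a second single-gene probe set, the second probe set had the same sign of change as the one kept for 5 (Hdac1, Kdm7a, Kmt2d, Setd2 and Setd3) and the opposite sign for 3 (Eed, Hdac4 and Setd1b). With limma over all probe sets 0 of these 16 probe sets passed, and 0 had an unadjusted p under 0.05. Hdac9, Hdac5 and Prmt7 each had 1 probe set, so no second probe set could be set beside their changes.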

How the data were processed

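For every array the authors deposited log2 expression values of 35556 probe sets. The submitters' processing notes list RMA and Partek 6.5 but assign no step to either, and the log2 scale was read from the values (2.93 to 14.91). No detection calls or scan dates were used, so signal over background is unknown and batches could not be tested.

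Of the probe sets, 21789 list 1 gene in the platform annotation, 1621 several and 12146 none. Entrez identifiers tied 21698 of the first kind to a GRCm38.p6 gene table, with 0 symbols changed, and 19938 genes were kept. CRE-ERT2 arrays were set against ERT2 arrays with limma 3.58.1 under R 4.3.3 (two-sided moderated test, group as the only term), with Benjamini-Hochberg adjustment over all genes and a threshold of 0.05. The fit was tested on simulated data. No 2 arrays were duplicates (Pearson correlation 0.991 to 0.996 over probe sets). The number of arrays limits the precision.

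The members, roles and lists were chosen with earlier results of these data known. Values on every array are given for members that passed, for those with no overlap and an unadjusted p under 0.05, for the PRC2 core, and for others picked after their values were seen. From the partner lists, genes that passed are named, or else the 2 with the smallest p. List entries that no kept gene matched by symbol are not analysed here. The alternatives changed the scaling (quantile or median), left out the genes in the lowest tercile of mean expression, averaged a gene's probe sets, tested every probe set, used a trended and robust variance or weights per array, added replicate number as a block, or left out each array. Promoter windows are from RefSeq.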

Additional observations from a re-analysis of the deposited data

How the results depend on the processing

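The alternatives were computed for 35 members. Of these, 33 kept their direction in each alternative in which they were measured, and the other 2, both near 0 in the main analysis, did not. Hdac7 (-0.03) was at 0.00949 after the further quantile normalization. Kmt2d (-0.00) was at 0.0486 after it, 0.0265 with array weights, and -0.0673 to 0.0986 with an array left out, positive without CRE-ERT2 replicate 1 (0.0107), CRE-ERT2 replicate 2 (0.0197) or ERT2 replicate 1. Hdac9 passed in all 14, Hdac5 in 10 and Prmt7 in 5. The count of members that passed was 6 with a trended and robust variance (adding Hdac2, Prmt3 and Prmt5), 1 when all probe sets were tested and 1 to 3 with an array left out, against 3 in the main analysis, and it was 4 with the dimmest genes left out, where 63 members remained. Over all genes the count was 1544 with a trended and robust variance, 298 with all 35556 probe sets tested, 589 with the replicate number as a block and 453 to 979 with an array left out, against 914. The members' median change was -0.0753 to -0.0325 with an array left out, against -0.04, and farthest from 0 without ERT2 replicate 3, where the median of all genes was -0.02. The cause of these differences was not tested. Testing all probe sets changed both the number of tests and the unadjusted p of the kept probe sets (Kdm7a 0.0617, against 0.0236 over genes).

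The labels do not say whether replicate numbers pair the samples. Deviations of same-numbered arrays from their group means correlated at -0.11, -0.37 and -0.07. Differently numbered arrays of the 2 groups correlated from -0.32 to 0.45. The highest were CRE-ERT2 replicate 1 with ERT2 replicate 2 (0.45) and CRE-ERT2 replicate 2 with ERT2 replicate 3 (0.40). Within a group the deviations of a gene sum to 0, which ties these correlations to each other, so they cannot decide on a pairing. Whether any of these pairs shared a culture or batch was not tested. With the replicate block Hdac9 and Hdac5 passed and Prmt7 did not (adjusted p = 0.109). Without detection calls, it is unknown whether dim genes such as Kdm5b, Kdm4d, Kdm5d or Prmt8 were expressed at all. If they were, their change may be understated.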
